A study of Mus musculus with 42 samples.

Results

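The comparison described here was between livers collected at ZT 8 and livers collected at ZT 4, that is, across the middle of the light phase. Zeitgeber time (ZT) counts hours from lights on at ZT 0, and lights went off at ZT 12. The members were the 12 sequenced libraries of these 2 time points out of 42 in the series, 6 at each, chosen by their labelled time point and diet. Each time point held 3 libraries from mice on AIN93G, the standard low-fat diet, and 3 from mice on a high-fat diet (HFD).

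All mice were female C57BL/6 (C57BL/6NHsd in the study's methods), had been placed on their diet as weanlings and had eaten it for 3 weeks, so that they were 6 weeks old at collection. Each library was made from the liver of 1 mouse with free access to food, and each mouse gave 1 time point. The measurement was a count of poly(A)-selected RNA reads per gene. Depth was even, with 15306840 to 17663391 counts per library.

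In the liver, as in most tissues, a heterodimer of BMAL1 (gene Arntl) with CLOCK or NPAS2 binds E-box elements and switches on the Per, Cry, Nr1d, Ciart and Bhlhe40/41 repressors. Period and cryptochrome proteins then inhibit the heterodimer, while the NR1D (REV-ERB) proteins compete with RORs at elements in Arntl, Npas2 and Nfil3 and keep those genes low in the light phase. The output factors DBP, TEF and HLF bind D-boxes, where NFIL3 opposes them, and pass the rhythm on to enzymes of drug, sugar and lipid metabolism.

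The promoters below are shown because their genes were called between ZT 4 and ZT 8 and hold the letters of these elements. They were picked by hand, and some genes with larger changes, such as Npas2 and Usp2, are not shown. Each run covers the 250 bases before a transcript start that RefSeq annotates on GRCm38.p6 (mm10), 5′ to 3′ on the gene's strand. For Per1 this start lies inside the gene as the deposited table gives it (chr11:69095217-69109960), and for Ciart and Nfil3 the run overlaps the gene's first bases. Capitals mark the E-box CACGTG, the D-box TTATGNAA or the ROR element core TAGGTCA, read on either strand, so that the reverse complement also appears.
Per1 chr11:69098699-69098948 (+ strand): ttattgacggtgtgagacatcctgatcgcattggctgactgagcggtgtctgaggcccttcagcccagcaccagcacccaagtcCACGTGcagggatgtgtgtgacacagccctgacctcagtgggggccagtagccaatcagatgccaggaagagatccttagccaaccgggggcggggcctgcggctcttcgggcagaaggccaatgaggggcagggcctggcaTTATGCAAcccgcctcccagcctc
Per3 chr4:151044666-151044915 (- strand): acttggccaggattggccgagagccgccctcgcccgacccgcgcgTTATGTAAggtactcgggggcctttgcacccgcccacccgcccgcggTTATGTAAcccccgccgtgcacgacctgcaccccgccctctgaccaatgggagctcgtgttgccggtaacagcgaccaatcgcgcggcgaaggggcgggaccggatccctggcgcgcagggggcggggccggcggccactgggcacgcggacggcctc
Ciart chr3:95882229-95882478 (- strand): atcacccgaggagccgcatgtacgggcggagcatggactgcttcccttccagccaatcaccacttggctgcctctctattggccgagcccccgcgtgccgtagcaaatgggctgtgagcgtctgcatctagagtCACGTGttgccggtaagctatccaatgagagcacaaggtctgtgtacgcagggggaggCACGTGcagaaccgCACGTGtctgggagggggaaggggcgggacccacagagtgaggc
Coq10b chr1:55052520-55052769 (+ strand): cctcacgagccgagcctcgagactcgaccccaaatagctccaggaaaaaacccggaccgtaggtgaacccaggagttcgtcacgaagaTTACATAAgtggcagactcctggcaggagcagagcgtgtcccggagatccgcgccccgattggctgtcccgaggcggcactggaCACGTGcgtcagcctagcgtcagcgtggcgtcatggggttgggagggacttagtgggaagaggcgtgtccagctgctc
Nfil3 chr13:52981040-52981289 (- strand): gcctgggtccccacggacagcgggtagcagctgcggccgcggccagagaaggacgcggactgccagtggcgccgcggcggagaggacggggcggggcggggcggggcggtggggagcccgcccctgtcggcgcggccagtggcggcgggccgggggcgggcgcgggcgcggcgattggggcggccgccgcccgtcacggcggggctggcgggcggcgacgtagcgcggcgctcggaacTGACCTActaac
Tjp3 chr10:81291582-81291831 (- strand): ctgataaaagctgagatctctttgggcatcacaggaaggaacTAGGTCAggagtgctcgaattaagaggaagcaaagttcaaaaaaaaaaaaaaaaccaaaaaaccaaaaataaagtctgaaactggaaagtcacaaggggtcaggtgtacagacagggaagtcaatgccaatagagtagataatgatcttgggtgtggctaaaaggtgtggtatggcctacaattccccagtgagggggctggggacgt
For Arntl the same core lies just after the start of 1 of its annotated transcripts, and 25 bases around it are shown.
Arntl chr7:113207532-113207556 (+ strand): ggcagaaagTAGGTCAgggacggag

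Per1, Per3, Ciart and Coq10b rose between ZT 4 and ZT 8, and Nfil3, Tjp3 and Arntl fell. Positions count from these transcript starts. Per1 holds an E-box starting at position -166 and a D-box at -24, and Per3 holds 2 D-boxes at -205 and -158. Ciart holds 3 E-boxes, at -116, -58 and -44, and Coq10b an E-box at -78 and a D-box at -162. The ROR core begins at -12 in Nfil3, at -208 in Tjp3 and at position 31 after the start in Arntl. Matches did not all follow the direction of change: a second window of Tjp3 holds an E-box at -55, and Cgn, which also fell, holds an E-box at -185. Osgin1, which fell, holds a D-box at -87, and Ivns1abp, which rose, holds an E-box and also the ROR core, at -165 in its first window. Among tested genes with a window, 27.1% of the genes called higher held CACGTG (26 of 96) against 8.63% of those called lower (12 of 139) and 11.7% of all tested. TTATGNAA was in 10.4% of the genes called higher, 2.16% of those called lower and 2.78% of all tested. TAGGTCA showed the opposite split, in 1.04% of the genes called higher, 7.19% of those called lower and 2.55% of all tested, while TGGGTCA was in 4.17%, 6.47% and 4.02%. Over all 32851 windows in the table the shares were 7.15%, 3.38%, 2.61% and 3.98%. These matches describe letters in a window and were not tested.

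Before the results, the makeup of the 12 livers was checked. Hepatocyte markers such as Alb held 14.6 to 18.9% of counts in every library, and none of the fixed marker lists (hepatocyte, adipocyte, macrophage, lymphocyte, neutrophil, erythroid, endothelial, stellate, bile duct, pancreatic acinar and sex-linked genes) had a gene called between the time points. No neutrophil gene had enough counts to be tested. Of the lymphocyte, bile duct, acinar and sex-linked lists only 3 of 12, 3 of 7, 1 of 8 and 1 of 5 genes were tested. For these lists the lack of a call says little. In whole liver, fewer cells of a type and less RNA per cell cannot be told apart. Mitochondrial genes took 3.2 to 4.12% of counts at ZT 4 and 3.87 to 5.64% at ZT 8, highest in Y48_3. The Y-linked gene Ddx3y had at most 1 count in a library. Skeletal muscle transcripts stood out in 2 ZT 8 libraries: the 15 genes of a muscle list, chosen after seeing the data, summed to 0.328% of counts in Y21_1 (AIN93G) and 0.0284% in Y48_3 (HFD), against 0.000461 to 0.00637% in the other 10. The value of 0.00637% was that of Y38_3, a ZT 8 library on HFD, and the rest had at most 0.00218%. Acta1, the skeletal muscle actin, had 8739 counts in Y21_1, 807 in Y48_3 and 322 in Y38_3, and 20 to 118 counts elsewhere. Y38_3 stayed in the fits that left out Y21_1 and Y48_3 together. Y48_3 also held the adrenal enzyme genes Cyp11b1 (106 counts) and Cyp21a1 (122 counts), which had 0 to 3 counts in the other libraries. At ZT 4, Y24_1 (AIN93G) held 401 counts of Ucp1, the brown fat uncoupling protein, and no other of the 12 libraries had more than 1. All 15 muscle genes had a higher mean at ZT 8, with a median log2 fold change of 5.22, and none was called (lowest adjusted p = 0.0643). The part of these tissues in the results was not tested beyond leaving the libraries out, which is given beside the counts of called genes over all genes, in the clock and in the lists with called genes.

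Between ZT 4 and ZT 8, 304 of 12028 genes tested changed (2.53%), with 127 higher (1.06%) and 177 lower (1.47%) at ZT 8. A gene was called when its adjusted p was below 0.05 in edgeR's quasi-likelihood test with diet as a block. Among called genes Ciart, Usp2, Bhlhe41, Dbp and Per3 rose by more than 3 on the log2 scale, and Npas2, Arntl and Loxl4 fell by more than 3. The median log2 fold change over all genes tested was 0.004, which the scaling of the libraries holds near 0. Most changes were small: 45 of the genes called higher and 52 of those called lower moved at least 2-fold. In 188 of the 304 called genes the 6 libraries of one time point did not overlap the 6 of the other, beside 2.27% of all genes tested (273 genes, 103 higher and 170 lower at ZT 8). Without both muscle-rich libraries 168 genes were called, 157 of them among the 304, and without these and Y24_1 the count was 92, of which 90 were among the 304. All 42 libraries of the series in a single fit gave 15 called genes. All 15 were among the 304. The tissue makeup of the libraries collected after ZT 8 was not checked here.

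**Figure D1:**
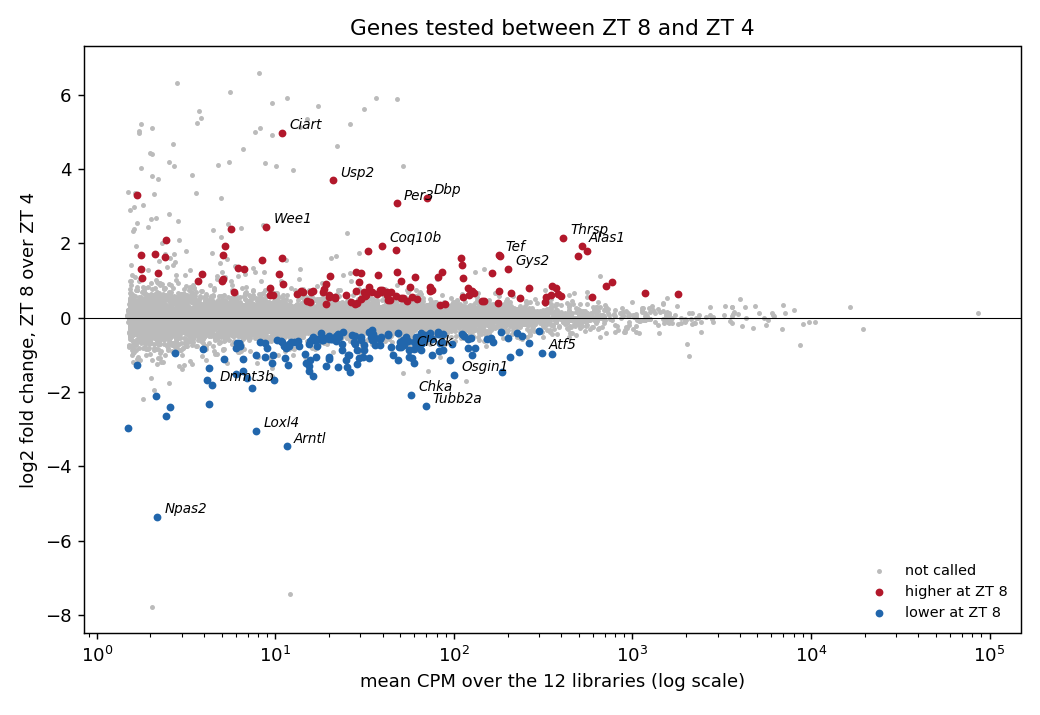
Each point is 1 of the 12028 genes tested, with its mean CPM over the 12 libraries on a log axis and its log2 fold change, ZT 8 over ZT 4. Red points are the 127 genes called higher, blue the 177 called lower, and grey the rest. Of the 63 grey genes above 2, 60 had their highest value in Y21_1, the library with the most muscle transcripts.

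Of the 30 genes in the clock lists, 20 were called, 16 higher and 4 lower, beside 2.53%, 1.06% and 1.47% of all genes tested, with a median log2 fold change of 1.16. The members and lists had been set with earlier results of these data in view, so this count is a description. Npas2, Ciart and Bhlhe41 were among the 20. They reached the mean of 25 counts needed for testing only through the time point where they were higher. When both muscle-rich libraries were left out 17 were called, without these and Y24_1 16, and in the fit of all 42 libraries 6. Per2 (adjusted p = 0.15) and Noct (0.0585) then missed the threshold in edgeR's test and Bhlhe41 had too few counts to be tested.

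Of the 5 activators 3 fell. Levels are given as CPM, counts scaled to a library of 1000000 counts and for library composition. Arntl, at chr7:113207465-113314126, had 15.6 to 34.1 CPM at ZT 4 (median 17.5) and 1.22 to 2.49 CPM at ZT 8 (median 1.88). The groups did not overlap, and the gene fell by 3.46 on the log2 scale (SE 0.24, adjusted p = 8.32e-06). Npas2, the paralog of Clock at chr1:39193731-39363236, was near the detection floor at ZT 8, with 0 to 4 counts per library and 10 in all, against 27 to 155 per library and 424 in all at ZT 4. The ratio of ZT 4 to ZT 8 was 42.5, with an exact 95% interval from 22.9 to 89.3 that covers counting error only. Clock itself had 58 to 85.6 CPM at ZT 4 (median 70.7) and 25.3 to 57.2 CPM at ZT 8 (median 39.4), and here too the groups did not overlap. It fell by 0.86 on the log2 scale (SE 0.17, adjusted p = 0.0115). Rora, whose protein drives Arntl, overlapped between the time points (log2 fold change -0.14, SE 0.14, adjusted p = 0.693).

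Of the 10 repressors 7 were called higher and none lower, with a median log2 fold change of 1.32. Ciart (Chrono), which binds the activator heterodimer, had 3 to 34 counts per library at ZT 4 and 227 to 620 at ZT 8. Summed over 6 libraries this was 72 against 2099 counts, a ratio of 29.1 (exact 95% counting interval 23 to 37.3). Bhlhe41 (DEC2), an E-box repressor, was as scarce at ZT 4, with 30 counts over 6 libraries against 297 at ZT 8 and a ratio of 9.87 (6.77 to 14.9). In both genes the ZT 8 libraries lay above all ZT 4 libraries. Per3 had 4.46 to 26.3 CPM at ZT 4 (median 7.51) and 58.5 to 132 CPM at ZT 8 (median 82.1), and Per1 had 8.82 to 22.8 CPM at ZT 4 (median 15) and 41.1 to 57.2 CPM at ZT 8 (median 51.8). Neither overlapped, and they rose by 3.08 (SE 0.32, adjusted p = 1.37e-04) and 1.78 (SE 0.21, adjusted p = 3.38e-04) on the log2 scale. Per2 rose less clearly: its 24.9 to 62.3 CPM at ZT 8 overlapped the 8.3 to 28.2 CPM at ZT 4 (log2 fold change 1.22, SE 0.29, adjusted p = 0.0415), and it passed the threshold in 4 of the 12 fits that left out 1 library. Bhlhe40 (DEC1) rose by 1.42 (SE 0.23, adjusted p = 0.00366) with some overlap.

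Both REV-ERB genes had a higher mean at ZT 8, and 1 of them was called. Whether their changes differed was not tested. Nr1d2 (REV-ERBβ) had 48.6 to 96.2 CPM at ZT 4 (median 75.3) and 130.1 to 204 CPM at ZT 8 (median 140.4) and rose without overlap (log2 fold change 1.06, SE 0.13, adjusted p = 3.68e-04). Nr1d1 (REV-ERBα) had 34 to 76.3 CPM at ZT 4 (median 60.1) and 52 to 116 CPM at ZT 8 (median 74.6), which overlapped, and was not called (log2 fold change 0.44, SE 0.22, adjusted p = 0.359). The cryptochromes were not called either. Cry1 was the only repressor with a lower mean at ZT 8, with 11.1 to 41.2 CPM at ZT 4 (median 14.4) and 5.35 to 15.7 CPM at ZT 8 (median 8.88) (log2 fold change -1.06, SE 0.32, adjusted p = 0.112). Cry2 had 26.2 to 36.7 CPM at ZT 4 (median 31.1) and 23.2 to 50.7 CPM at ZT 8 (median 42.5) (log2 fold change 0.40, SE 0.15, adjusted p = 0.188), and its lowest ZT 8 value was in Y21_1. With both muscle-rich libraries left out Cry2 was called, with a rise of 0.54 (adjusted p = 0.0369), but not without these and Y24_1 (adjusted p = 0.102), and it passed in 2 of 23 alternatives in all.

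**Figure D2:**
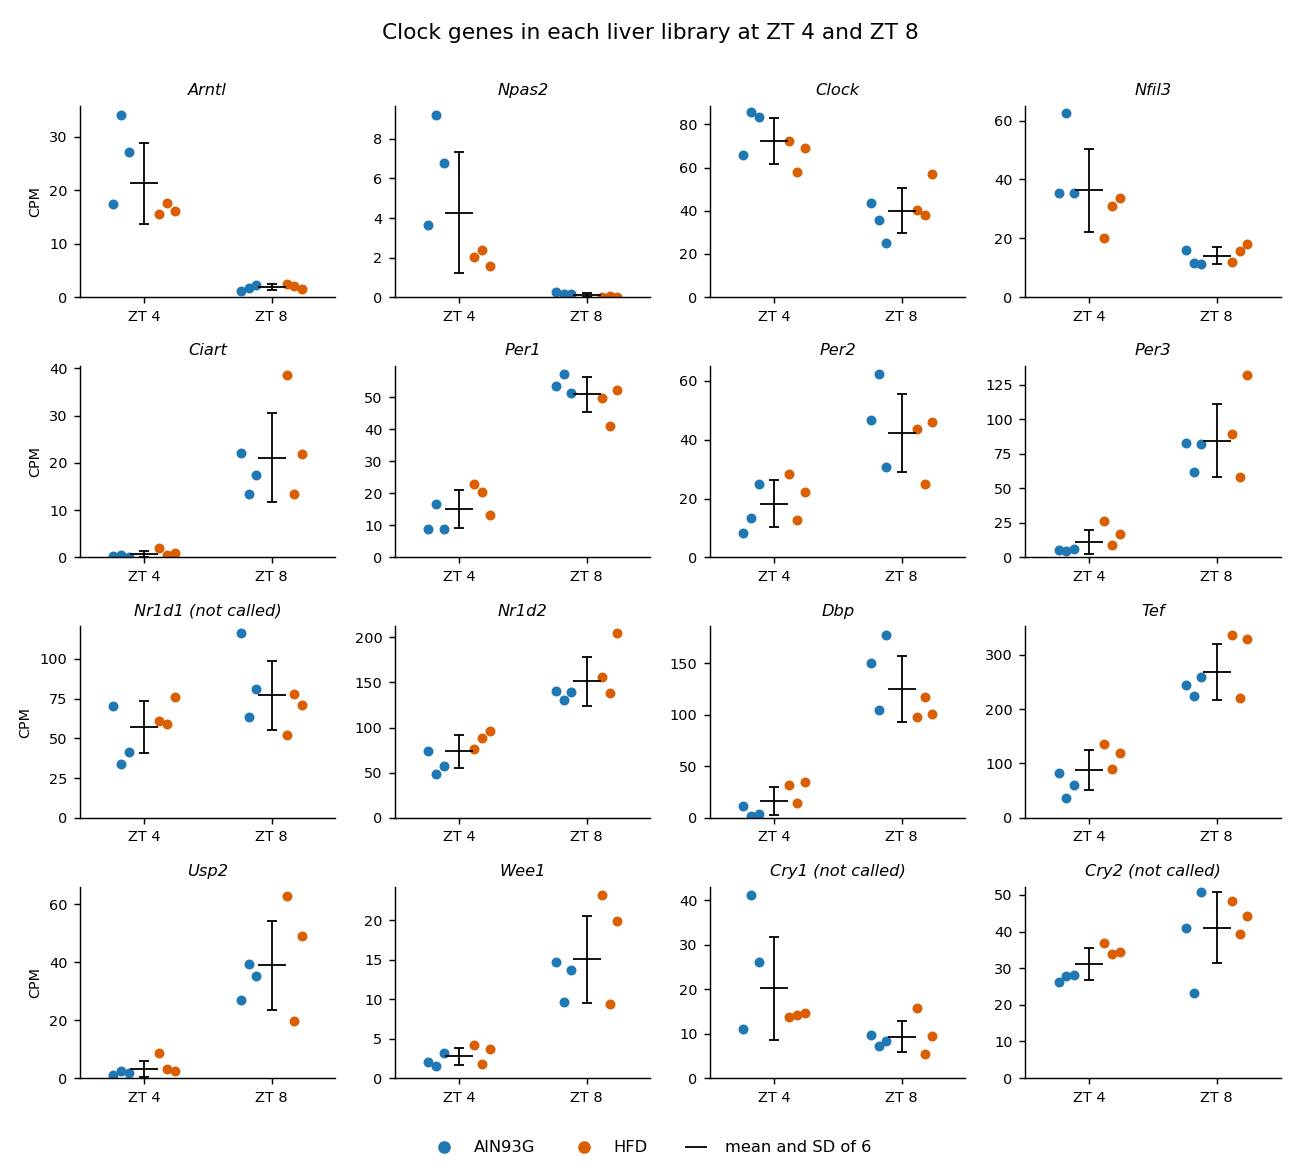
CPM of 16 clock genes in each of the 12 libraries (blue AIN93G, orange HFD), with the mean and SD of the 6 libraries at each time point in black and axes starting at 0. Arntl, Npas2, Clock and Nfil3 were lower at ZT 8 without overlap, Ciart, Per1, Per3, Nr1d2, Dbp, Tef, Usp2 and Wee1 were higher without overlap, Per2 overlapped, and Nr1d1, Cry1 and Cry2 were not called.

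Among the 15 output genes 8 were called higher and 1 lower. Dbp, the D-box activator at chr7:45705088-45710203, had 1.96 to 34.6 CPM at ZT 4 (median 13.2) and 97.6 to 177 CPM at ZT 8 (median 111), and rose by 3.23 (SE 0.53, adjusted p = 0.00413) on the log2 scale. Tef, its relative, had 36.5 to 136 CPM at ZT 4 (median 85.7) and 221 to 337 CPM at ZT 8 (median 251) and rose by 1.69 (SE 0.20, adjusted p = 3.55e-04). Nfil3, the D-box repressor, went the other way, with 20.0 to 62.5 CPM at ZT 4 (median 34.6) and 11.3 to 18.1 CPM at ZT 8 (median 13.7) (log2 fold change -1.33, SE 0.22, adjusted p = 0.00433). In all 3 the groups did not overlap, so that Dbp and Tef were higher and Nfil3 lower in every ZT 8 library than in any ZT 4 library. Hlf, the remaining member of the D-box activators, had 42.1 to 65 CPM at ZT 4 and 61.7 to 101 CPM at ZT 8 and did not pass (log2 fold change 0.50, SE 0.13, adjusted p = 0.0514). Usp2, a ubiquitin protease that acts on clock proteins, had 1.1 to 8.5 CPM at ZT 4 (median 2.39) and 19.8 to 62.9 CPM at ZT 8 (median 37.2) (log2 fold change 3.70, SE 0.37, adjusted p = 1.11e-04). Wee1, the kinase that holds cells before mitosis, had 1.55 to 4.25 CPM at ZT 4 (median 2.58) and 9.34 to 23.2 CPM at ZT 8 (median 14.2) (log2 fold change 2.45, SE 0.27, adjusted p = 1.93e-04). Neither overlapped.

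The other outputs called were metabolic. Coq10b, a coenzyme Q binding protein of mitochondria, had 13.9 to 21.1 CPM at ZT 4 (median 16.4) and 41.3 to 79.6 CPM at ZT 8 (median 64.7) and rose by 1.94 (SE 0.15, adjusted p = 1.31e-05). Gys2, the liver glycogen synthase, had 93.9 to 140 CPM at ZT 4 (median 114) and 244 to 342 CPM at ZT 8 (median 284) and rose by 1.31 (SE 0.12, adjusted p = 3.89e-05). Nampt, the rate-limiting enzyme of NAD salvage, had 45.6 to 61.7 CPM at ZT 4 (median 51.9) and 75.9 to 152 CPM at ZT 8 (median 115) (log2 fold change 1.10, SE 0.16, adjusted p = 0.00151). These 3 did not overlap between time points. Noct, a phosphatase of NADPH, rose with overlap (log2 fold change 1.81, SE 0.38, adjusted p = 0.019) and lost its call without Y24_1 or Y38_3. Mthfd1l (1.27, adjusted p = 0.0591), Tsku (1.74, adjusted p = 0.138), Rgs16 (1.05, adjusted p = 0.476), Cdkn1a (-0.99, adjusted p = 0.217) and Lonrf3 (-0.71, adjusted p = 0.507) were not called, each value being a log2 fold change from the same test. Rgs16 was spread widely, from 4.7 to 168 CPM at ZT 4 alone.

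Outside the clock, enzymes of drug handling were among the called genes. Of 39 xenobiotic metabolism genes tested, 5 were called higher (12.8%, beside 1.06% of all genes tested) and none lower, with a median log2 fold change of 0.198. Alas1, the rate-limiting enzyme of heme synthesis, had 117 to 361 CPM at ZT 4 (median 195) and 444 to 1841 CPM at ZT 8 (median 689) (log2 fold change 1.93, SE 0.36, adjusted p = 0.00972). Its highest value was in Y21_1 and the next in Y13_3, and without both muscle-rich libraries it still rose, by 1.46 (adjusted p = 0.031). Upp2, a liver uridine phosphorylase, had 88.1 to 435 CPM at ZT 4 (median 238) and 557 to 1286 CPM at ZT 8 (median 796) (log2 fold change 1.80, SE 0.25, adjusted p = 0.00102). Cyp2a5, the coumarin hydroxylase, had 132 to 301 CPM at ZT 4 (median 235) and 315 to 1040 CPM at ZT 8 (median 816) (log2 fold change 1.66, SE 0.25, adjusted p = 0.00232), and reads it shares with its close copy Cyp2a4 could be split between the 2. Por, which passes electrons to the P450 enzymes, rose by 0.86 (SE 0.19, adjusted p = 0.0238) and passed in 7 of 12 fits without 1 library but not without both muscle-rich libraries (adjusted p = 0.0719). The fifth was Cyp1a2, outside the naming rule, with 223 to 338 CPM at ZT 4 (median 252) and 284 to 474 CPM at ZT 8 (median 403) and a rise of 0.56 (SE 0.12, adjusted p = 0.0188). With them left out 3 of the 39 were called, and without these and Y24_1 2 were.

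Lipogenesis had genes called in both directions, with 4 of 29 higher (beside 1.06% of all genes tested) and 2 lower (beside 1.47%) and a median log2 fold change of 0.281. Thrsp (Spot 14), which promotes fatty acid synthesis, had 84.6 to 185 CPM at ZT 4 (median 153) and 238 to 1138 CPM at ZT 8 (median 635) and rose without overlap (log2 fold change 2.15, SE 0.28, adjusted p = 6.40e-04). Lpin1, a phosphatidate phosphatase and coactivator, had 45.3 to 129.6 CPM at ZT 4 (median 78.8) and 166 to 655 CPM at ZT 8 (median 195) (log2 fold change 1.65, SE 0.35, adjusted p = 0.022). Its highest library was Y21_1, at 655 CPM, and it rose by 1.28 without both muscle-rich libraries (adjusted p = 0.0405). It lost its call without Y24_1, Y37_2, Y48_2 or Y38_3. Lpin2 (0.80, adjusted p = 0.00659) and the desaturase Fads2 (0.55, adjusted p = 0.022) rose with overlap, Fads2 passing in only 5 of 12 fits without 1 library. Insig2, which holds SREBP in the endoplasmic reticulum, had 247 to 351 CPM at ZT 4 (median 308) and 126 to 268 CPM at ZT 8 (median 140) and fell (log2 fold change -0.91, SE 0.16, adjusted p = 0.00755), and Agpat2, an acyltransferase of triglyceride synthesis, fell by 0.54 (adjusted p = 0.0155). Leaving out both muscle-rich libraries left 3 called higher and 1 lower, and without these and Y24_1 1 was called higher and none lower.

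In the list of glycolysis, fructose and glycogen genes 3 of 23 were called higher, beside 1.06% of all genes tested, and none lower. Leaving out the muscle-rich libraries, or these and Y24_1, left 2 called, Gys2 and Slc2a2. Beside Gys2 these were Slc2a2 (GLUT2), the hepatocyte glucose carrier, with 231 to 330.4 CPM at ZT 4 (median 267) and 436 to 516 CPM at ZT 8 (median 479.6) (log2 fold change 0.81, SE 0.10, adjusted p = 6.40e-04), and Gbe1, the glycogen branching enzyme (log2 fold change 0.56, SE 0.13, adjusted p = 0.0371). Slc2a2 did not overlap, and Gbe1 passed in only 3 of 12 fits without 1 library. Of 37 urea cycle and amino acid genes, 3 were called higher, beside the same 1.06%: the cationic amino acid carrier Slc7a2 (log2 fold change 0.97, SE 0.20, adjusted p = 0.0183), the carrier Slc38a4 (log2 fold change 0.67, SE 0.13, adjusted p = 0.0124) and the transaminase Gpt2 (log2 fold change 0.62, SE 0.15, adjusted p = 0.0399). All 3 overlapped between time points, and Gpt2 passed in 3 of 12 fits without 1 library while Slc7a2 lost its call without Y37_2 or Y48_2. Of these Slc38a4 and Slc7a2 were called without the muscle-rich libraries, and Slc7a2 without these and Y24_1. Abcg5, described next, was called without the muscle-rich libraries but not without these and Y24_1. In bile acid synthesis and transport (26 tested, 1 called higher and 1 lower, beside 1.06% and 1.47% of all genes) Abcg5, a subunit of the sterol exporter, rose by 0.45 (SE 0.08, adjusted p = 0.0095), and Hsd3b7 fell by 2.39 (SE 0.52, adjusted p = 0.0236) at 436 counts over the 6 ZT 4 libraries and 83 over the 6 ZT 8 libraries, passing in 7 of 12 such fits. Gbe1, Gpt2 and Hsd3b7 missed the threshold without both muscle-rich libraries (edgeR adjusted p = 0.0589, 0.126 and 0.0868).

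In the folding lists few genes were called. Of 28 endoplasmic reticulum folding and stress genes 2 were called lower, beside 1.47% of all genes tested, Atf5, a stress transcription factor, with 354 to 446 CPM at ZT 4 (median 408) and 166 to 272 CPM at ZT 8 (median 213) (log2 fold change -0.94, SE 0.11, adjusted p = 3.68e-04), and Sdf2l1 (log2 fold change -0.86, SE 0.21, adjusted p = 0.0455). In the heat shock list 1 of 20 was called, beside 2.53% of all genes, Fkbp4, an HSP90 cochaperone (log2 fold change -0.55, SE 0.12, adjusted p = 0.0192), while Hspa8 (-0.09, adjusted p = 0.854) and Hsp90ab1 (-0.27, adjusted p = 0.172) were not. Rbm3, a cold-inducible RNA-binding protein, had 22.4 to 28 CPM at ZT 4 (median 25) and 28.7 to 35.2 CPM at ZT 8 (median 33) and rose (log2 fold change 0.39, SE 0.08, adjusted p = 0.0225), with Srsf5 and Sfpq at -0.18 and -0.01 and not called. Stat5a, which carries growth hormone signals, was the 1 gene called of 14 in that axis, beside 2.53% of all genes (log2 fold change -0.56, SE 0.14, adjusted p = 0.045). The median log2 fold changes of the folding, heat shock and growth hormone lists were -0.208, -0.202 and -0.26. With both muscle-rich libraries out, Fkbp4, Rbm3, Stat5a and Sdf2l1 were not called, and they passed in 9, 6, 3 and 2 of the 12 fits without 1 library. Atf5 passed in all 12 and, of the folding and heat shock lists, was the 1 gene called without the muscle-rich libraries.

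The remaining lists held no called gene in edgeR's test, for a background of 2.53%. They were fatty acid oxidation and PPARα (40 tested, median log2 fold change 0.0771), sterol synthesis (26, -0.00172), gluconeogenesis and insulin sensing (24, 0.0447), ribosome biogenesis (30, 0.17), ribosomal proteins (41, -0.0627), immediate early genes (14, 0.0187), glucocorticoid-responsive genes and metallothioneins (11, 0.184), acute phase (19, -0.182) and cell cycle (20, -0.109). Without the muscle-rich libraries 1 of these genes was called, Pdk4, a kinase that restrains pyruvate oxidation, which was then lower at ZT 8, while over all 12 libraries its log2 fold change was 0.18 (adjusted p = 0.93). Without these and Y24_1 none was called. At this depth and spread such genes were not shown to differ. Pck1, the gluconeogenic carboxykinase, had 1374 to 3198 CPM at ZT 4 (median 2427) and 2512 to 3497 CPM at ZT 8 (median 3022). These overlapped.

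**Figure D3:**
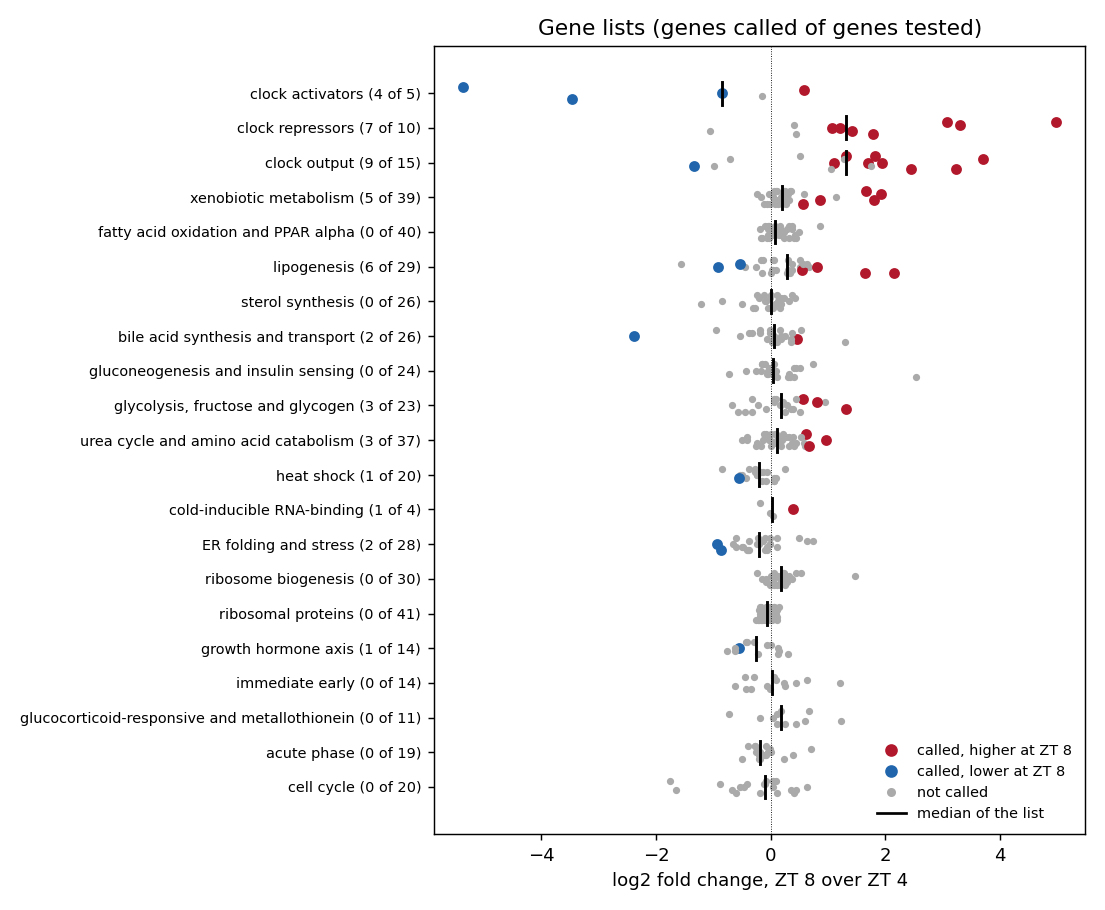
Log2 fold change, ZT 8 over ZT 4, of each tested member of the pathway lists, with the number called of the number tested after each name. Red points were called higher, blue lower and grey not called, and black bars are list medians. The clock lists held 20 of 30 genes called, and no other list held more than 6.

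The 10 largest falls without overlap, among called genes with a mean of at least 5 CPM at the higher time point, held genes of varied roles. Npas2 fell more but averaged 4.27 CPM at ZT 4, and of the 10 Arntl is in a clock list. Loxl4, a collagen cross-linking oxidase, had 6.13 to 24 CPM at ZT 4 (median 12.4) and 0.933 to 2.33 CPM at ZT 8 (median 1.66) (log2 fold change -3.05, SE 0.35, adjusted p = 2.50e-04). Tubb2a, a beta-tubulin that shares sequence with Tubb2b, had 63.4 to 204 CPM at ZT 4 (median 97.2) and 15.2 to 27.1 CPM at ZT 8 (median 21.3) (log2 fold change -2.39, SE 0.25, adjusted p = 1.37e-04). Chka, the choline kinase that opens phosphatidylcholine synthesis, had 61.4 to 145 CPM at ZT 4 (median 93.2) and 14.7 to 30.9 CPM at ZT 8 (median 21) (log2 fold change -2.08, SE 0.24, adjusted p = 3.10e-04). These 3 were lower in every ZT 8 library than in any ZT 4 library by design of the rule. Lrfn3, a synaptic adhesion protein, fell by 1.88 (adjusted p = 0.00366), Dnmt3b, a de novo DNA methyltransferase, by 1.80 (adjusted p = 4.94e-04) and Ndrg1, a stress-responsive gene, by 1.57 (adjusted p = 5.99e-04). Osgin1, an oxidative stress response gene, had 99.7 to 197 CPM at ZT 4 (median 147) and 31.9 to 73.5 CPM at ZT 8 (median 51.3) and fell by 1.54 (adjusted p = 2.95e-04). The unnamed transcript Gm30301 (-1.69, adjusted p = 7.53e-04) and the ubiquitin ligase gene Rnf144a (-1.52, adjusted p = 0.00425) completed the set with Arntl.

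The step was then read on each diet alone, 3 libraries against 3. On AIN93G 49 of 12010 genes were called (0.408%), 19 higher and 30 lower, and on HFD 34 of 12017 (0.283%), 15 higher and 19 lower. The diets share no library, so each is a separate look at the same step. Of the 49 genes called on AIN93G, 48 had a value on HFD, and all 48 moved in the same direction there, 45 with an unadjusted p below 0.05, against 11.1% of all genes with such a p on HFD. Of the 34 called on HFD, 30 moved in the same direction on AIN93G, 28 with an unadjusted p below 0.05, against 8.53% of all genes. The 4 that did not were Selenbp2, Serpina4-ps1, Mvd and Nr0b2. Called on both were 18 genes. These counts rest on few mice: leaving out 1 library gave 5 (without Y24_1) to 32 (without Y14_3) on AIN93G and 7 (without Y38_3) to 57 (without Y41_2) on HFD.

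Among genes called without overlap, the largest changes on AIN93G were those of Ciart (5.81), Dbp (4.61), Usp2 (4.27), Npas2 (-5.10), Arntl (-3.94) and Loxl4 (-3.69), as log2 fold changes. On HFD they were those of Ciart (4.46), Usp2 (3.22), Bhlhe41 (3.21), Arntl (-3.01), Loxl4 (-2.44) and Mvd (-2.07). The 15 muscle genes, none of them called, had a median of 6.39 on AIN93G, above each of these, and of 3.44 on HFD. Npas2 was too low for the test on HFD, with 0, 1 and 0 counts at ZT 8. A test of the interaction between diet and time point called 0 of 12028 genes (0%) with edgeR (lowest adjusted p = 0.981). It gave 462 genes with an unadjusted p below 0.05, and DESeq2 called 1 gene, Mvd. Without Y24_1, edgeR called 1 gene, Selenbp2. Leaving out both muscle-rich libraries gave 0, and with no filter on low counts edgeR called 156. Whether the step differed between the diets thus depended on the tool, the filter and 1 library, and the lack of calls does not show that the steps were alike.

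Among the named genes Mvd, Lonrf3 and Dbp had the lowest interaction p with edgeR (unadjusted 4.53e-04, 0.00131 and 0.00153, adjusted 0.981 for each), and their values are given without a call. Dbp had 11.9, 1.96 and 3.82 CPM at ZT 4 and 149.8, 105 and 177 CPM at ZT 8 on AIN93G, and 31.4, 14.6 and 34.6 CPM at ZT 4 and 97.6, 117 and 100.5 CPM at ZT 8 on HFD. It was lower at ZT 4 on AIN93G than on HFD in all 3 libraries, with a log2 rise of 4.61 on AIN93G and 1.97 on HFD. Mvd, an enzyme of the mevalonate pathway, had 13.8, 12 and 26.1 CPM at ZT 4 and 25.4, 17.6 and 20.1 CPM at ZT 8 on AIN93G, and 32.7, 19.6 and 16.6 CPM at ZT 4 and 3.42, 8.14 and 4.79 CPM at ZT 8 on HFD. All 3 HFD libraries at ZT 8 lay below the other 9, with log2 steps of 0.28 on AIN93G and -2.07 on HFD. Lonrf3, whose protein carries a LON-type and a RING domain, had 2.46, 4.4 and 4.91 CPM at ZT 4 and 0.758, 0.827 and 1.3 CPM at ZT 8 on AIN93G, and 2.01, 1.96 and 2.69 CPM at ZT 4 and 4.42, 1.37 and 3.59 CPM at ZT 8 on HFD.

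**Figure D4:**
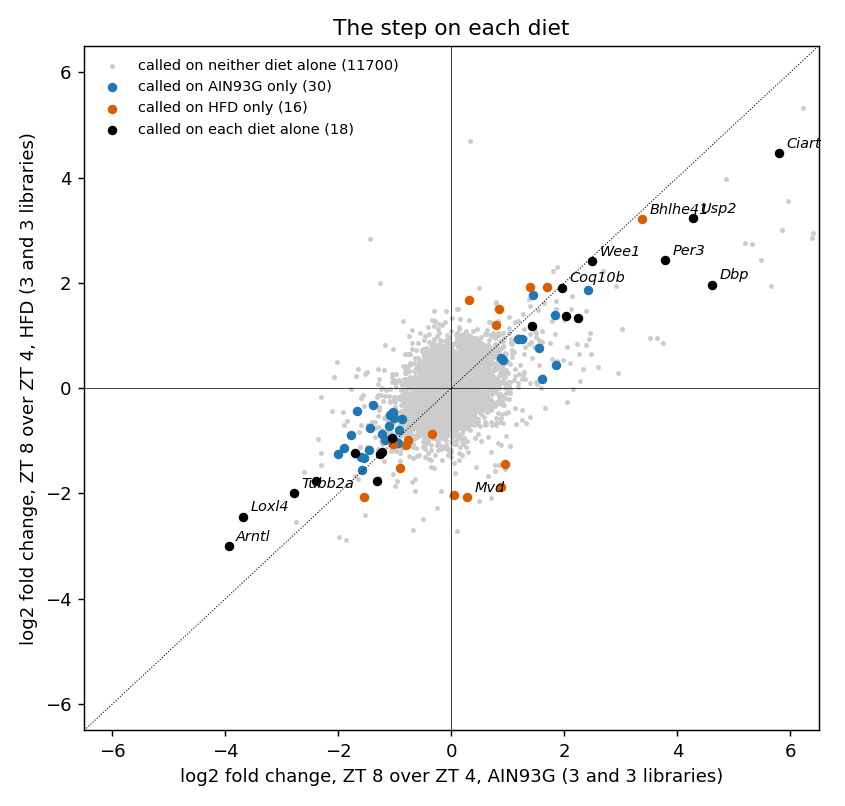
Log2 fold change, ZT 8 over ZT 4, on AIN93G (horizontal) and on HFD (vertical), for genes tested on both diets. Black points are the 18 genes called on each diet, blue the 30 called on AIN93G only, orange the 16 called on HFD only, and the dotted line marks equal change. Of the tested genes, 9 lie outside the axes. Mvd is the orange point at 0.28 on AIN93G and -2.07 on HFD.

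To place the step in the morning, it was set against the step before it, from ZT 0 to ZT 4, with the 6 ZT 0 libraries added. These 6 had Acta1 at 1.06 to 5.88 CPM, no Cyp11b1 and Ucp1 at no more than 0.0628 CPM. Both steps share the ZT 4 libraries. Their difference was called for 14 of 12048 genes (0.116%), 5 with the later step more positive and 9 with it more negative. Ciart, Coq10b, Gys2 and Slc5a6 had earlier steps of -0.25, 0.06, 0.16 and -0.05 on the log2 scale and later steps of 4.96, 1.94, 1.31 and 1.6. Coq10b averaged 16.1, 16.7 and 64 CPM at ZT 0, 4 and 8 (SD 4.08, 2.64 and 13.2, n = 6), and Gys2 104, 116 and 289 CPM (SD 10.8, 15.3 and 38.2, n = 6). Slc5a6, the biotin and pantothenate carrier, averaged 5.63, 5.5 and 16.6 CPM. Ivns1abp, an actin-binding protein gene, was lowest at ZT 4, with means of 137, 95.5 and 159.6 CPM.

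Nr1d1 and Nr1d2 had the larger step before ZT 4, on the log2 scale. Nr1d1 averaged 5.39, 57.7 and 78 CPM, with log2 steps of 3.44 and 0.47 that differed by -2.96 (SE 0.50, edgeR adjusted p = 0.0147). For Nr1d2 the steps were 2.39 and 1.06 (edgeR adjusted p of the difference = 0.0069). Arntl had the larger step after ZT 4 on the log2 scale, with -1.01 and then -3.48 (edgeR adjusted p = 0.00184). The tight junction genes Tjp3 (ZO-3) and Cgn (cingulin) also had the steeper fall in the later step. Tjp3 averaged 51.7, 40.7 and 17.1 CPM and Cgn 66.6, 61.6 and 30.9 CPM (edgeR adjusted p of the difference in steps = 0.0069 and 0.0115). Arhgef19, Rtn4rl1, Phldb3 and Lzts2 complete the 14, with earlier steps of 0.24, 0.10, 0.28 and 0.21 and later steps of -0.90, -1.23, -1.0 and -0.64. Without both muscle-rich libraries 7 were called, all among the 14, and leaving out 1 library gave 7 (without Y48_2) to 29 (without Y24_2).

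**Figure D5:**
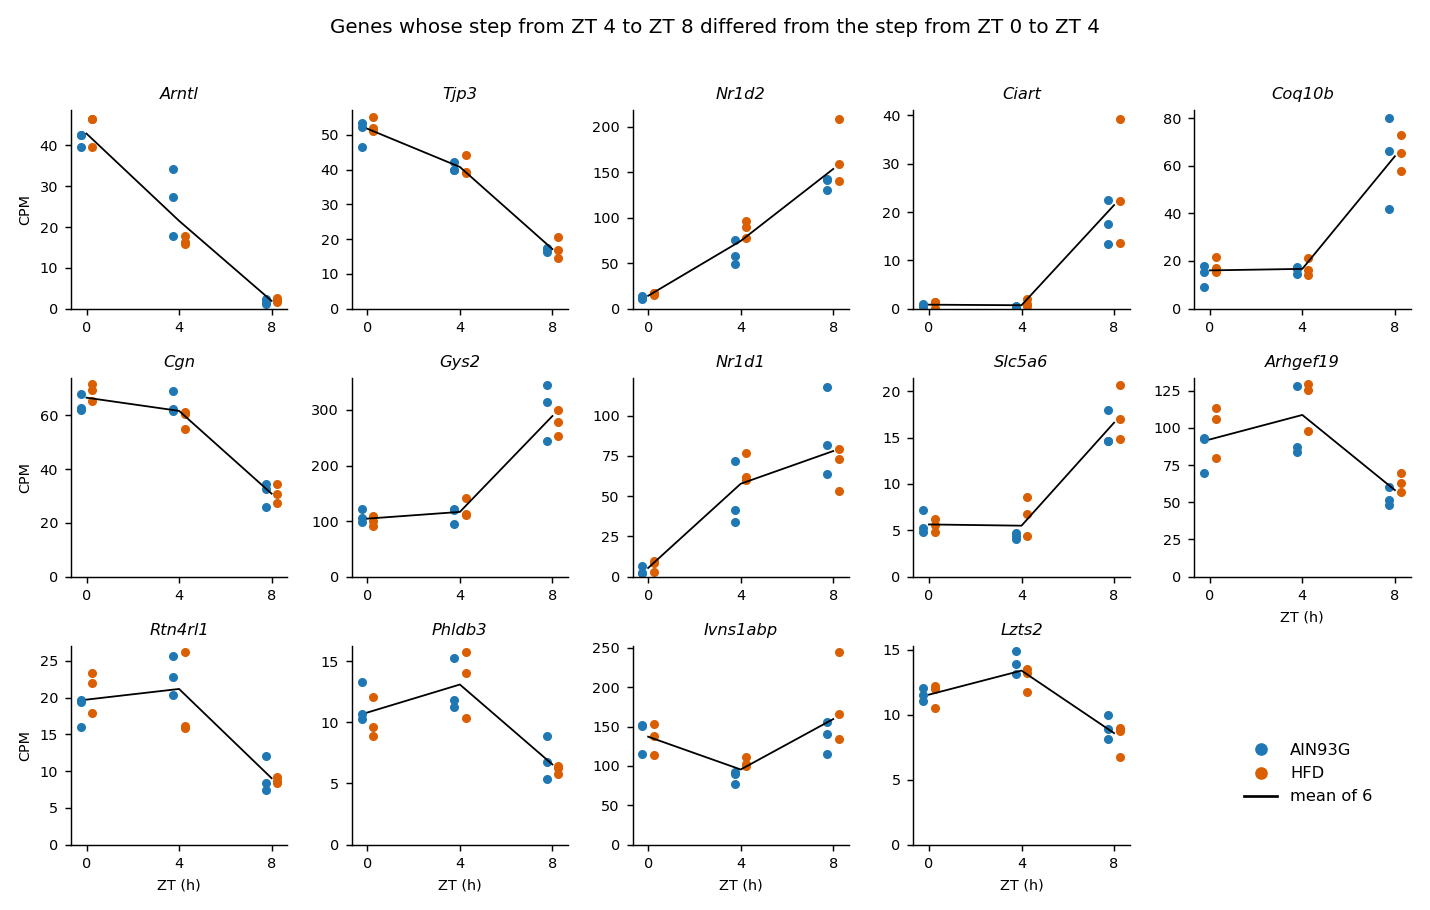
CPM of the 14 genes whose later step differed from the earlier one, in each of 18 libraries at ZT 0, 4 and 8 (blue AIN93G, orange HFD), with the mean of 6 as a line and axes starting at 0. Ciart, Coq10b, Gys2 and Slc5a6 lie close together at ZT 0 and ZT 4 and higher at ZT 8, while the mean of Nr1d1 goes from 5.39 to 57.7 CPM by ZT 4.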

How the data were processed

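The series holds 42 libraries, which the study describes as liver. Of these the 6 at ZT 4 and the 6 at ZT 8 were compared, and the 6 at ZT 0 entered the comparison of steps. The authors deposited a table of raw read counts per gene for 54532 genes, and all 42 count columns were matched to samples by title. RNA was poly(A)-selected and libraries were made with NEBNext Ultra RNA kits, for which no strand-marking step is described, so overlapping and antisense genes cannot be told apart. The submitters' processing notes list fastp, STAR, HTSeq 0.6.1, DESeq, STAR-Fusion and the mm10 build, and strand and multimapping settings are not given in the sources used here.

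A gene entered a fit when its counts averaged 25 or more over the libraries fitted (99.67% of counts in the main comparison). The limit of 25 follows the study, applied here to the mean. Counts were scaled by TMM and tested with edgeR 4.0.16 (glmQLFit and glmQLFTest) in R 4.3.3, two-sided, with diet as a block and Benjamini-Hochberg adjusted p below 0.05. A log2 fold change is ZT 8 over ZT 4, and SE is its size divided by the root of F. CPM values are TMM-scaled. The biological coefficient of variation was 0.232. Each diet alone, the interaction of diet and time point, and ZT 8 minus 2 times ZT 4 plus ZT 0 were fitted the same way. Alternatives were DESeq2 1.42.0, limma 3.58.1 (voom), other scalings, filters and designs, each library left out, and, added after seeing the data, the libraries with muscle or brown fat transcripts left out. Scripts were tested on simulated counts. Replicate pairs gave a chi-square per degree of freedom of 36.3 to 79.9, so none agreed within sampling noise. With 6 libraries against 6, p-values measure the spread between these mice.

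The members and the gene lists were chosen with earlier results of these data known. The skeletal muscle, adrenal and brown fat lists and 4 further lists were added after seeing the values. Named genes were all members of the clock lists, the 10 largest rises and falls called without overlap at 5 CPM or more at the higher time point, in each other list up to 4 called members each way by size (the 2 most abundant where fewer than 2 were called), up to 5 each way of the called interaction genes (there were none), the 3 largest called changes each way without overlap on each diet, the 5 lowest p each way among called genes of the step contrast, and the tissue markers. Genes outside the rule are named where a count is small, and values of some genes are not reported here. These 90 genes, markers apart, were found in GENCODE M21 by identifier. Promoter windows (250 bases before to 50 after a start) came from RefSeq, GRCm38.p6, for 9269 tested genes matched by symbol, and motifs were searched on both strands in whole windows.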

Additional observations from a re-analysis of the deposited data

Results flagged for a closer look

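Among the named genes, each group of 6 libraries was searched for 1 value far from the other 5, by Dixon's test on log2(CPM + 0.1). It marked 10 of 174 groups (5.75%), where chance marks about 1 in 20. At ZT 8, library Y38_3 stood above the rest in Insig2 (268 CPM, others 126 to 166), Hlf (101 CPM, others 61.7 to 73.5) and Hspa8 (1700 CPM, others 818 to 1060). Y21_1, which also held the most muscle transcripts, was high in Lpin1 (655 CPM, others 166 to 273) and low in Cry2 (23.2 CPM, others 39.4 to 50.7). Y24_2 was low in Sfpq (53.3 CPM, others 78.3 to 91.7). At ZT 4, Thrsp was low in Y48_2 (84.6 CPM, others 139 to 185), Agpat2 in Y37_2 (149 CPM, others 195 to 212) and Slc7a2 in Y24_1 (297 CPM, others 501 to 659), and Rps2 was high in Y14_3 (869 CPM, others 552 to 645). No difference of the step between the diets was called by edgeR's interaction test in the main fit.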

How the results depend on the processing

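No paired analysis was possible because the titles number no replicates as such: of the numbers they carry, 1 per diet recurs at both time points (in Y24_1 and Y24_2 on AIN93G, and in Y48_2 and Y48_3 on HFD), and what it marks is not given in the sources used here. The 304 genes called between the time points became 615 with DESeq2, 841 with no filter on low counts, 15 in the fit of all 42 libraries, and 168 and 92 without both muscle-rich libraries and without these and Y24_1. Leaving out 1 library gave 206 to 370. The other alternatives gave 266 to 305. Calls on AIN93G (49) became 243 with DESeq2, 85 with the 12 libraries in 1 fit, 436 with no filter and 5 to 32 without 1 library, and those on HFD (34) 230, 65, 449 and 7 to 57. The interaction went from 0 to 1 with DESeq2, 156 with no filter and 0 to 1 without 1 library. The step contrast (14) became 92 with DESeq2, 134 with no filter, 7 without both muscle-rich libraries and 7 to 29 without 1 library. The cause of these differences was not tested. Of the 54 named genes that were called and are reported, none reversed in 1228 values under alternatives, 1064 of which passed, and 10 genes passed in every one. The fit of all 42 libraries called 6 of the 30 clock genes, and the other alternatives 16 to 26. Genes not called changed sign as follows: Hspa8 0.10 without the muscle-rich libraries and Y24_1, Zfp36 0.15 and 0.22 and Fabp1 0.10 and 0.20 without the muscle-rich libraries and without these and Y24_1, Fabp1 0.034 with no diet term, and without 1 library Rps2 (-0.14 to 1.34e-04), Hspa8 (-0.28 to 0.0207), Fbp1 (-0.0171 to 0.12), Gadd45g (-0.19 to 0.49), Zfp36 (-0.30 to 0.0728), Fabp1 (-0.26 to 0.17) and Sfpq (-0.0666 to 0.10). Depth limits Npas2, Ciart and Bhlhe41, which were near 0 at 1 time point. They and Hsd3b7 reached the mean of 25 counts only through the time point where they were higher.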

Other observations

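Genes named here were chosen after their values were seen, and so were the 4 lists they belong to, which are described and not tested. Of all genes tested 1.06% were called higher and 1.47% lower, beside which each count here stands. Of 9 tubulins tested all had a lower mean at ZT 8, and 3 were called lower with edgeR: Tubb2a, Tubb4b (log2 fold change -0.68, adjusted p = 0.0095) and Tuba4a (-0.55, adjusted p = 0.0376). The libraries of the 2 time points did not overlap in these 3. Of 22 tight junction genes 4 were called lower, among them Tjp3, Cgn and Cldn1, and 1 higher, Marveld1 (0.70, edgeR adjusted p = 0.0248). Cldn1, claudin 1, had 109.6 to 171 CPM at ZT 4 (median 126) and 41.6 to 79.9 CPM at ZT 8 (median 57.9) (log2 fold change -1.15, SE 0.17, adjusted p = 0.00213, edgeR). It did not overlap, and Tjp1 was not among the called genes. When both muscle-rich libraries were out 2 tubulins and 3 tight junction genes were called.

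In folate and glycine metabolism (26 genes tested) 4 were called lower and 1 higher. The glycine cleavage genes Gldc (log2 fold change -1.05, SE 0.14, adjusted p = 7.18e-04, edgeR) and Amt (log2 fold change -0.62, SE 0.12, adjusted p = 0.0119, edgeR) fell without overlap, and Fpgs fell by 0.57 (edgeR adjusted p = 0.0109). Slc25a32, the mitochondrial folate carrier, rose by 0.75 (edgeR adjusted p = 0.00414). Of 28 interferon-induced genes 4 were called lower, Rsad2, Cmpk2, Mx2 and Helz2, with edgeR adjusted p of 0.0488, 0.0171, 0.0449 and 0.00306, and Helz2 was the 1 among them without overlap. With those libraries out 3 folate genes and 1 interferon-induced gene were called.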
